A study of Homo sapiens with 16 samples.

Results

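Expression was followed for 10 of the 57820 genes in each deposited table, all encoding proteins that restrain or amplify Wnt signaling at the cell surface. They were taken by gene symbol and matched to the Ensembl identifiers of the files. They comprise the Dickkopf genes DKK1, DKK2 and DKK3, the Dickkopf receptor gene KREMEN1, the Wnt-binding antagonists SFRP1, SFRP2, FRZB and WIF1, and the R-spondins RSPO1 and RSPO3. RNA-seq was done on MDA-MB-231 and MDA-MB-436 cells, which are established mesenchymal lines of triple-negative breast cancer. Every culture carried the 7TGP vector, in which 7 TCF-binding sites drive eGFP and which confers puromycin resistance, so no group was free of the vector. Repeated FACS had enriched each line for eGFP-negative cells (7TGP-NEG) or eGFP-positive cells (7TGP-POS). The resulting 4 sublines, each a single sorted population, were grown in low serum (0.5% FBS, harvested on day 3) or standard serum (10% FBS, harvested on day 6), which gave 8 groups of 2 biological replicates, 16 libraries in all. Replicates were cultures of the same subline, so the P values measure the spread between cultures and not between independent sortings.

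Canonical Wnt ligands signal through a Frizzled receptor together with LRP5 or LRP6, which stabilizes β-catenin and lets it act with TCF/LEF factors on target genes. DKK1 and DKK2 bind LRP5/6, and KREMEN1 is a membrane receptor that cooperates with DKK1 in removing LRP6 from the surface. DKK3 is a divergent Dickkopf whose action on LRP5/6 is less clear. The SFRPs, FRZB (also called SFRP3) and WIF1 bind Wnt ligands outside the cell. R-spondins act in the opposite direction: with LGR4, LGR5 or LGR6 they inhibit the ubiquitin ligases RNF43 and ZNRF3, which otherwise clear Frizzled receptors. DKK1 is also a textbook target of the β-catenin pathway that it inhibits.

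Total counts on genes ranged from 27918418 to 32667756 per library in low serum and from 31827130 to 46044073 in standard serum. At these depths 3 counts, the limit used here for a gene listed at 0, correspond to 0.0918 to 0.107 CPM (counts scaled to the library total) in low serum and 0.0652 to 0.0943 CPM in standard serum. These limits cover counting error only. The low serum libraries were made after rRNA depletion and the standard serum libraries after poly(A) selection, on different sequencers, so serum, day and library preparation cannot be told apart and no test was made between serum conditions. Among the markers of the lines, CDKN2A, which is deleted in MDA-MB-231, averaged at most 0.105 TPM (transcript abundance scaled for gene length and library size) in the MDA-MB-231 groups and 68.7 to 81.2 TPM in the MDA-MB-436 groups. VIM was present in every group, and group means of ESR1 and PGR did not exceed 0.19 TPM. With ERBB2 added, the sum of these 3 genes was 17.0 to 27.9 TPM across the libraries, so nearly all of it was ERBB2. The sum of 7 mesenchymal markers was lower in 7TGP-POS than in 7TGP-NEG cells of MDA-MB-231, at 1704 to 1907 against 3305 to 3348 TPM in low serum and at 2946 to 3102 against 4958 to 5436 TPM in standard serum. The sum of 6 epithelial markers in this line was also lower in 7TGP-POS, at 519 to 580 against 870 to 943 TPM under low serum and 960 to 1006 against 1078 to 1167 TPM under standard serum. In MDA-MB-436 the mesenchymal sum was higher in 7TGP-POS under standard serum (965 to 1024 against 613 to 670 TPM) and overlapped under low serum, and the epithelial sum did not exceed 23.5 TPM. These sums add TPM, so the most abundant genes weigh most and a single marker may go the other way. The study itself reports enrichment of the epithelial-to-mesenchymal transition gene set in 7TGP-POS cells of both lines. The part of the markers in the results was not tested.

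DKK1 was the dominant member in every library. It made up 98.3% to 99.7% of the summed TPM of the members in MDA-MB-231, 59.1% to 59.9% in MDA-MB-436 7TGP-NEG and 82.2% to 85.0% in MDA-MB-436 7TGP-POS. By mean TPM, DKK1 ranked 132 of 19404 protein-coding genes in MDA-MB-231 7TGP-NEG in standard serum and 5860 in MDA-MB-436 7TGP-NEG in standard serum, its highest and lowest groups. Ordered by TPM, DKK1 ran from MDA-MB-231 in standard serum through MDA-MB-231 in low serum to MDA-MB-436 7TGP-POS and then 7TGP-NEG, and no 2 neighbouring groups overlapped. SFRP1 and KREMEN1 came next in MDA-MB-436, with group means of 6.04 to 12.6 TPM for SFRP1 and 4.75 to 7.15 TPM for KREMEN1. No other member reached a group mean of 5 TPM in any group.

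**Figure D1:**
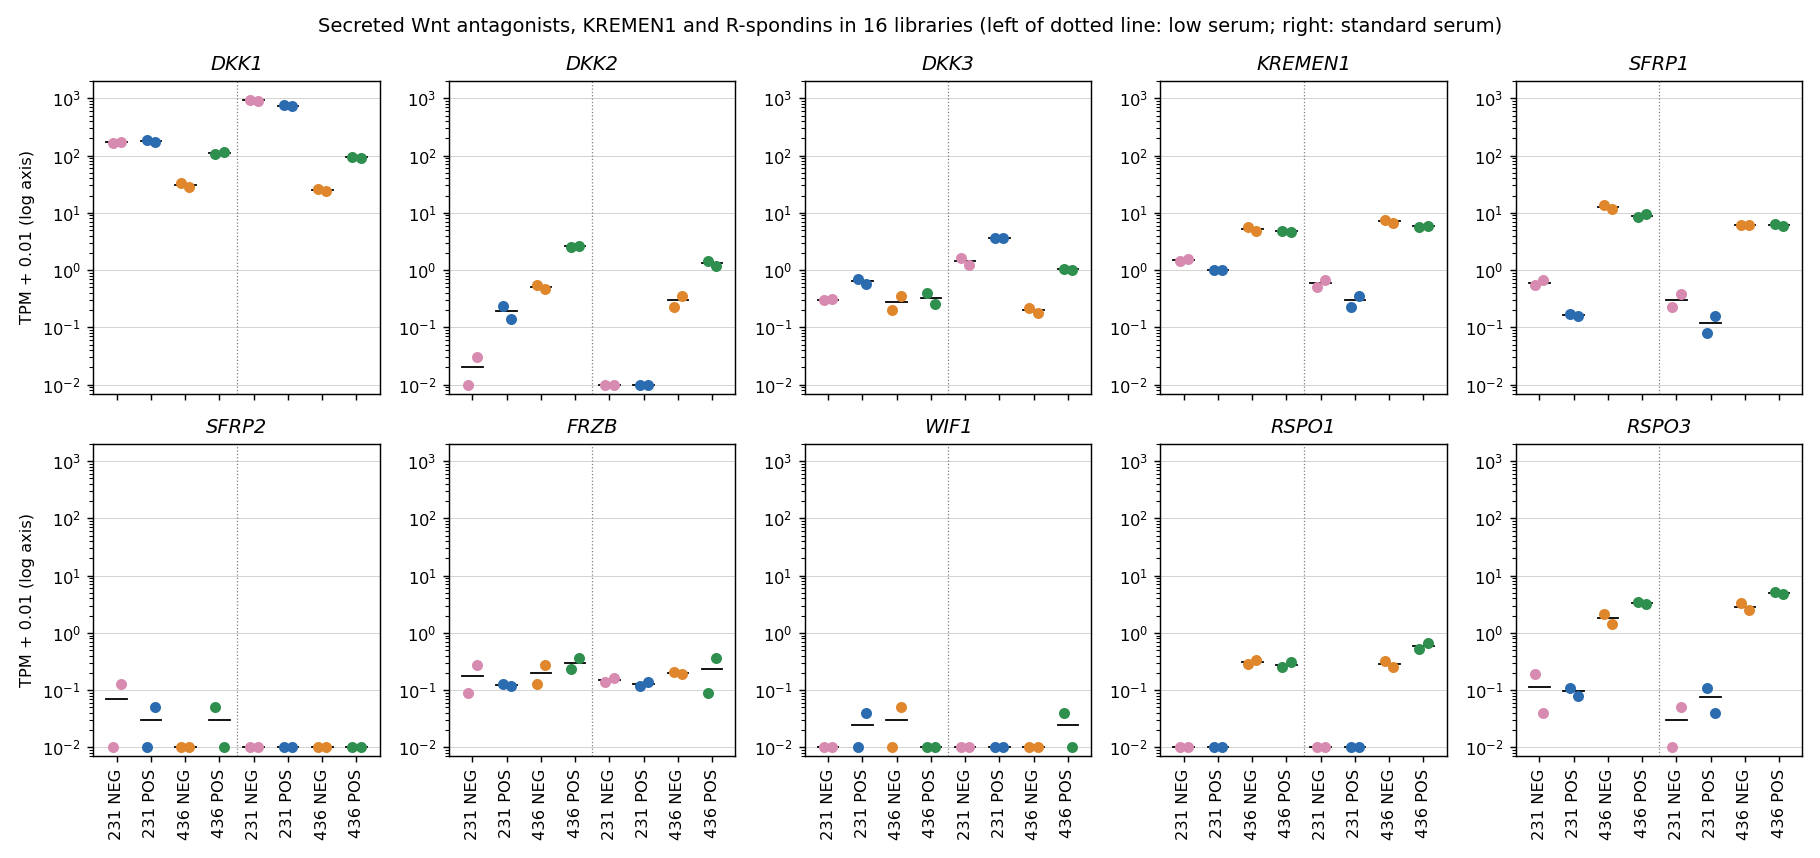
Level of each of the 10 genes (TPM + 0.01, log axis) in the 16 libraries, as points colored by subline with a bar at the mean of the 2 replicates; low serum lies left of the dotted line and standard serum right of it. DKK1 lies highest in every group, from 24.0 to 920 TPM, while SFRP2 and WIF1 lie at or near 0 throughout.

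DKK1 rose with reporter activity in MDA-MB-436, 4.31-fold in low serum and 3.44-fold in standard serum, and was not called in MDA-MB-231. The gene (ENSG00000107984) lies on the plus strand at chr10:54074041-54077802 (GRCh37) and overlaps the antisense transcript PRKG1-AS1. The study describes strand-specific libraries, but the strand setting of the counting is not stated, so whether reads of PRKG1-AS1 are included is not known. The 250 bases before its start are shown because the vector used for sorting reads TCF/LEF activity. They were taken from RefSeq promoters (GRCh38.p14) and matched base for base to GRCh37, with the core letters CAAAG of the TCF/LEF motif, or CTTTG on the opposite strand, in capitals:

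DKK1 promoter, chr10:54073791-54074040, plus strand: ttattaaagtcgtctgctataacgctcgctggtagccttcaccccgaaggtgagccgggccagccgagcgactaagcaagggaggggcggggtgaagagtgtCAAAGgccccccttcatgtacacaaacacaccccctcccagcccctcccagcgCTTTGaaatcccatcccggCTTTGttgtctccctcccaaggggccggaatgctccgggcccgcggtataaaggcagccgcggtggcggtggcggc

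This window held 3 such matches, 1 forward and 2 reverse, starting 148, 95 and 76 bases before the gene. At least 1 match was present in 42.1% of the 35116 RefSeq promoter windows of this length, and 3 or more in 2.83%. The longer motif ATCAAAG, which contains CAAAG, occurred in 2.26% of windows on either strand and was not among the letters of the DKK1 window. A match describes the letters only.

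In MDA-MB-436 in low serum, DKK1 stood at 23.3 and 21.2 CPM in the 7TGP-NEG libraries and at 96.4 and 97.3 CPM in the 7TGP-POS libraries. The groups did not overlap, and the log2 fold change was 2.11 (SE 0.0599, adjusted P = 7.90e-29) (4.31-fold). In standard serum the 7TGP-NEG libraries held 16.1 and 14.4 CPM and the 7TGP-POS libraries 54.8 and 54.4 CPM. The log2 fold change was 1.78 (3.44-fold,  SE 0.0813, adjusted P = 6.21e-12), again without overlap. In MDA-MB-231, DKK1 was more abundant and the reporter groups lay close together. Its low serum values were 151 and 151 CPM in 7TGP-NEG and 182 and 186 CPM in 7TGP-POS, a log2 difference of 0.29 (SE 0.0505, adjusted P = 7.39e-06). Its standard serum values were 531 and 544 CPM in 7TGP-NEG against 446 and 436 CPM in 7TGP-POS, a log2 difference of -0.34 (SE 0.0730, adjusted P = 0.00134). Both of these passed the P threshold in opposite directions but lay below the 2-fold limit required here for a call, namely an adjusted P under 0.05 together with a log2 fold change of 1 or more in either direction. The reporter difference of DKK1 differed between the lines, with an interaction (MDA-MB-231 relative to MDA-MB-436, log2) of -1.82 under low serum (SE 0.0784, adjusted P = 2.83e-22) and -2.12 under standard serum (SE 0.109, adjusted P = 4.96e-11).

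DKK2 was also higher in 7TGP-POS than in 7TGP-NEG cells of MDA-MB-436, at a much lower level than DKK1. DKK2 (ENSG00000155011, minus strand, chr4:107842959-108204963) had 24 and 19 counts in MDA-MB-436 7TGP-NEG in low serum and 142 and 120 counts in 7TGP-POS. The groups were far apart, with a log2 fold change of 2.63 (SE 0.269, adjusted P = 1.45e-12). In standard serum the counts were 9 and 16 in 7TGP-NEG and 76 and 50 in 7TGP-POS, a log2 fold change of 2.08 (SE 0.376, adjusted P = 1.08e-04). MDA-MB-231 held almost no DKK2. In low serum 0 and 1 counts were found in 7TGP-NEG and 13 and 8 in 7TGP-POS, which was called (adjusted P = 2.63e-04) and corresponds to a ratio of 21.8 with an exact 95% counting interval of 3.51 to 903. All 4 MDA-MB-231 libraries in standard serum were at 0 counts, so neither the reporter difference there nor its contrast with MDA-MB-436 could be measured.

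DKK3 was the member called higher in 7TGP-POS cells of both lines in standard serum. DKK3 (ENSG00000050165, minus strand, chr11:11977754-12031316) overlaps the oppositely oriented coding gene USP47. Without a stated strand setting of the counting, whether reads of the overlap were kept apart is not known. In MDA-MB-231 it stood at 2.12 and 1.67 CPM in 7TGP-NEG and at 4.95 and 4.93 CPM in 7TGP-POS, a log2 fold change of 1.32 (SE 0.192, adjusted P = 2.56e-05). In MDA-MB-436 the standard serum values were 0.296 and 0.230 CPM against 1.39 and 1.37 CPM, a log2 fold change of 2.33 (SE 0.349, adjusted P = 5.90e-06). Neither pair of groups overlapped. The increase was smaller in MDA-MB-231, with an interaction of -1.01 (SE 0.399, adjusted P = 0.0409). This difference lost its call with DESeq2 (adjusted P = 0.152), was 0.18, in the other direction, on log2(TPM + 1), and ranged from -1.19 to -0.81 when single libraries were left out. In low serum MDA-MB-231 had 18 and 18 counts in 7TGP-NEG and 46 and 40 in 7TGP-POS (log2 fold change 1.31, SE 0.338, adjusted P = 0.00101). MDA-MB-436 had 10 and 17 against 26 and 13 counts in low serum, which overlapped, with a log2 difference of 0.55 (SE 0.417, adjusted P = 0.272).

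KREMEN1 (ENSG00000183762, plus strand, chr22:29469023-29564321) fell in MDA-MB-231 7TGP-POS cells in standard serum. It had 37 and 46 counts in 7TGP-NEG and 16 and 27 in 7TGP-POS, a log2 fold change of -1.04 (SE 0.275, adjusted P = 0.00571). The call was lost without MDA-MB-231 7TGP-NEG replicate 2 (-0.79) or 7TGP-POS replicate 1 (-0.77). In low serum the same comparison gave 143 and 151 against 105 and 109 counts, a log2 difference of -0.39 (SE 0.147, adjusted P = 0.0300) that was not called. In MDA-MB-436 the low serum values were 14.4 and 13.1 CPM in 7TGP-NEG and 15.9 and 14.04 CPM in 7TGP-POS, a difference of 0.11 (SE 0.0994, adjusted P = 0.353) whose sign turned on the TPM scale. The standard serum values were 16.6 and 14.6 against 12.1 and 12.8 CPM, a difference of -0.38 (SE 0.131, adjusted P = 0.0216) that was not called.

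SFRP1 was lower in 7TGP-POS than in 7TGP-NEG cells of MDA-MB-231, where it was scarce. It was not called in MDA-MB-436, where it was more abundant. SFRP1 (ENSG00000104332) lies on the minus strand at chr8:41119481-41166992. In MDA-MB-231 in low serum it had 32 and 37 counts in 7TGP-NEG and 10 and 10 in 7TGP-POS. This non-overlapping decrease gave a log2 fold change of -1.71 (SE 0.354, adjusted P = 3.22e-05). In standard serum the counts were 10 and 15 against 3 and 7, a log2 fold change of -1.39 (SE 0.510, adjusted P = 0.0323). The standard serum call was not stable: it was lost with DESeq2 (adjusted P = 0.0507), and without MDA-MB-231 7TGP-NEG replicate 2 (-0.995, adjusted P = 0.275), 7TGP-POS replicate 1 (-0.98, adjusted P = 0.203) or MDA-MB-436 7TGP-NEG replicate 1 (-1.40, adjusted P = 0.0532). In MDA-MB-436 SFRP1 stood at 20.1 and 19.2 CPM in 7TGP-NEG and 16.7 and 16.7 CPM in 7TGP-POS in low serum, a difference of -0.25 (SE 0.0902, adjusted P = 0.0181). In standard serum its 8.11 and 7.81 CPM overlapped the 7.95 and 7.35 CPM of 7TGP-POS (difference -0.11, SE 0.151, adjusted P = 0.569). The interaction between line and reporter state was -1.46 for SFRP1 in low serum (SE 0.365, adjusted P = 4.24e-04). The corresponding value in standard serum was -1.28 (SE 0.532, adjusted P = 0.0502), just outside the threshold. The low serum interaction did not hold on the TPM scales. It nearly vanished on log2(TPM + 1) and lay below the 2-fold limit on log2(TPM + 0.1).

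The other Wnt-binding antagonists were close to the limit of detection. FRZB (ENSG00000162998, minus strand, chr2:183698002-183731365) had between 3 and 12 counts in all 16 libraries. None of its comparisons was called, and its sign changed when single libraries were left out. SFRP2 (ENSG00000145423, minus strand, chr4:154701743-154710235) had 3, 1 and 1 counts in 3 low serum libraries and 0 in the other 13. WIF1 (ENSG00000156076, minus strand, chr12:65444406-65515085) had 1 count in each of 3 libraries and 0 in the other 13. SFRP2 and WIF1 had fewer than 10 counts in each table and were not tested, so a difference in them was not detectable at this depth.

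Of the R-spondins, RSPO3 was detected well only in MDA-MB-436 and rose there with reporter activity in low serum. RSPO3 (ENSG00000146374) lies on the plus strand at chr6:127439816-127520626. Its 250 upstream bases are shown beside those of DKK1, as the other promoter at hand of a gene called in MDA-MB-436:

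RSPO3 promoter, chr6:127439566-127439815, plus strand: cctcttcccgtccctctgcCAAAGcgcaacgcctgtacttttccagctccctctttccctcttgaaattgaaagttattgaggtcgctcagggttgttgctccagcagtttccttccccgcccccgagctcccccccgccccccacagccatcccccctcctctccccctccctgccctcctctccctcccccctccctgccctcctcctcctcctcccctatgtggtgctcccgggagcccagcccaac

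It held 1 CAAAG, starting 231 bases before the gene, and no ATCAAAG. Of the other matched promoters, WIF1 had 1 match and FRZB, RSPO1 and SFRP2 had none. Promoters of DKK2, DKK3, KREMEN1 and SFRP1 were not analysed here. In low serum RSPO3 had 71 and 45 counts in MDA-MB-436 7TGP-NEG and 143 and 107 in 7TGP-POS, a log2 fold change of 1.14 (SE 0.210, adjusted P = 1.03e-05). The value fell below the 2-fold limit without 7TGP-NEG replicate 2 (0.94) or 7TGP-POS replicate 1 (0.98). In standard serum the counts were 97 and 83 against 200 and 145. The groups did not overlap, but the log2 difference of 0.69 (SE 0.210, adjusted P = 0.0106) lay below the limit. In MDA-MB-231 the 8 libraries held between 0 and 7 counts. RSPO1 (ENSG00000169218, minus strand, chr1:38076951-38100564) was at 0 counts in all 8 MDA-MB-231 libraries. MDA-MB-436 had 8 to 10 counts of RSPO1 in 6 libraries and 20 and 20 in 7TGP-POS in standard serum, where the log2 difference of 0.99 (SE 0.485, adjusted P = 0.0913) did not pass.

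Counted together, 8 of the 10 genes could be tested in each comparison. In MDA-MB-231 3 were called in low serum (DKK2 and DKK3 higher, SFRP1 lower) against 5.9% of all 16069 genes tested. In standard serum 3 were called (DKK3 higher, SFRP1 and KREMEN1 lower) against 7.69% of 15414 genes. In MDA-MB-436 all called members were higher in 7TGP-POS: DKK1, DKK2 and RSPO3 in low serum, against 10.5% of all genes, and DKK1, DKK2 and DKK3 in standard serum, against 12.5%. The test of the difference between the lines called SFRP1 and DKK1 in low serum, with 11.7% of all genes called, and DKK1 and DKK3 in standard serum, with 13.8%. The genes are few and several are low, so these counts describe the members only. The deposited TPM carry a shift of their own in low serum, where the median of all genes at 1 TPM or more was -0.187 in MDA-MB-231 and -0.225 in MDA-MB-436 on log2(TPM + 1). TPM differences in low serum are to be read relative to it.

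**Figure D2:**
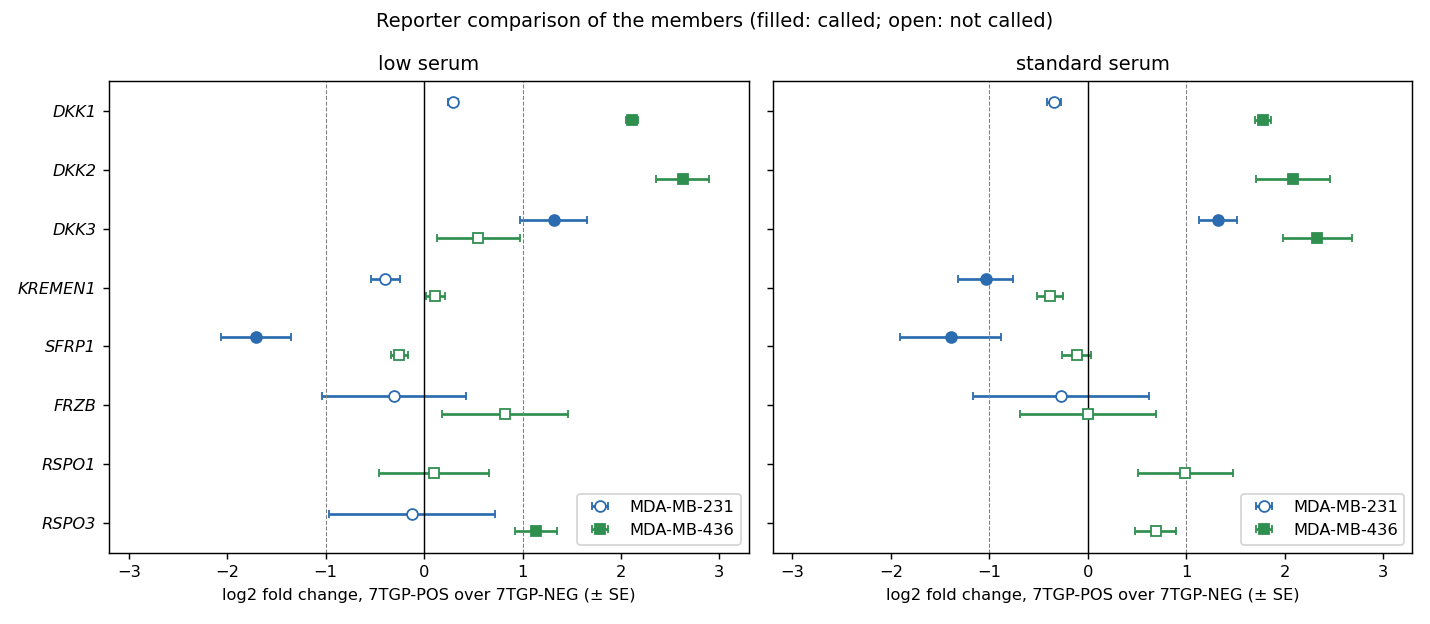
Log2 fold change of 7TGP-POS over 7TGP-NEG (horizontal axis, bars are SE) in MDA-MB-231 (circles) and MDA-MB-436 (squares), for members above 3 counts in at least 1 library of both groups; filled symbols were called and dashed lines mark a 2-fold change. DKK1 in MDA-MB-436 reaches 2.11 and 1.78, whereas MDA-MB-231 gives 0.29 and -0.34.

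The lines themselves differed in nearly every member that could be tested. DKK1 was higher in MDA-MB-231 than in MDA-MB-436, with a log2 difference of 2.87 between the 7TGP-NEG sublines in low serum (SE 0.0591, adjusted P = 6.04e-35) and of 5.35 in standard serum (SE 0.0799, adjusted P = 4.59e-19). Between the 7TGP-POS sublines the difference was 1.05 in low serum and 3.22 in standard serum. SFRP1 was lower in MDA-MB-231, with log2 differences for 7TGP-NEG and 7TGP-POS of -4.002 and -5.46 under low serum, and under standard serum -4.22 and -5.498 (all SE at most 0.440, all adjusted P at most 8.25e-12). KREMEN1 was also lower, with -1.40 and -1.90 under low serum, and under standard serum -3.46 and -4.12. DKK2 between the 7TGP-POS sublines gave -3.47 in low serum. RSPO3 gave -3.69 and -4.96 in low serum, where the first value was -5.55 without MDA-MB-231 7TGP-NEG replicate 1 (7 counts) and -2.93 without replicate 2 (1 count). In standard serum the ratio of RSPO3 in MDA-MB-436 to that in MDA-MB-231 was 168 between 7TGP-NEG sublines, from 1 count in MDA-MB-231 (95% counting interval 29.8 to 6672), and 72.8 between 7TGP-POS sublines (28.2 to 269). RSPO1, at 0 in MDA-MB-231, was at least 3.13-fold and 3.26-fold higher in MDA-MB-436 in low serum and at least 2.64-fold and 5.63-fold higher in standard serum, set against 3 counts in each library. DKK2 was at least 3.89-fold and 17.7-fold higher in MDA-MB-436 in standard serum on the same basis. DKK3 went the other way, and was higher in MDA-MB-231 by 3.06 and 2.04 in standard serum and by 1.29 between 7TGP-POS sublines in low serum, a call lost without MDA-MB-436 7TGP-POS replicate 2 (0.95). Its difference of 0.53 between 7TGP-NEG sublines in low serum was not called (SE 0.424, adjusted P = 0.245). In low serum 6 members were called between 7TGP-NEG sublines and 7 between 7TGP-POS sublines, where 41.9% and 38.9% of all genes were called. In standard serum 7 were called in each, where 46.7% and 45.4% of all genes were. The lines were kept in different media according to the methods of the study, so line and medium cannot be told apart.

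To see whether members moved with their chromosomal surroundings, each was set beside 50 tested genes that averaged 1 CPM or more, the nearest 25 on either side. Around DKK1 these reached as far as 16.1 Mb. The pairs given first had already been called, so a high rank among neighbours follows in part from that choice and decides nothing about the surroundings. In MDA-MB-436 the median log2 fold change around DKK1 was -0.03 in low serum and -0.17 in standard serum, and 1 and 2 of the 50 neighbours exceeded DKK1. Around DKK2 the medians were 0.0045 and 0.05, and no neighbour exceeded it. DKK3 in standard serum was exceeded by 1 of 50 around a median of 0.16, and RSPO3 in low serum by 3 of 50 around 0.09. In MDA-MB-231 all 50 neighbours of SFRP1 had a higher fold change than SFRP1 in both serum conditions, with medians of 0.08 and -0.05. Among pairs that were not called, DKK1 in MDA-MB-231 was exceeded by 10 neighbours in low serum and 46 in standard serum, and DKK3 in MDA-MB-436 in low serum by 6.

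**Figure D3:**
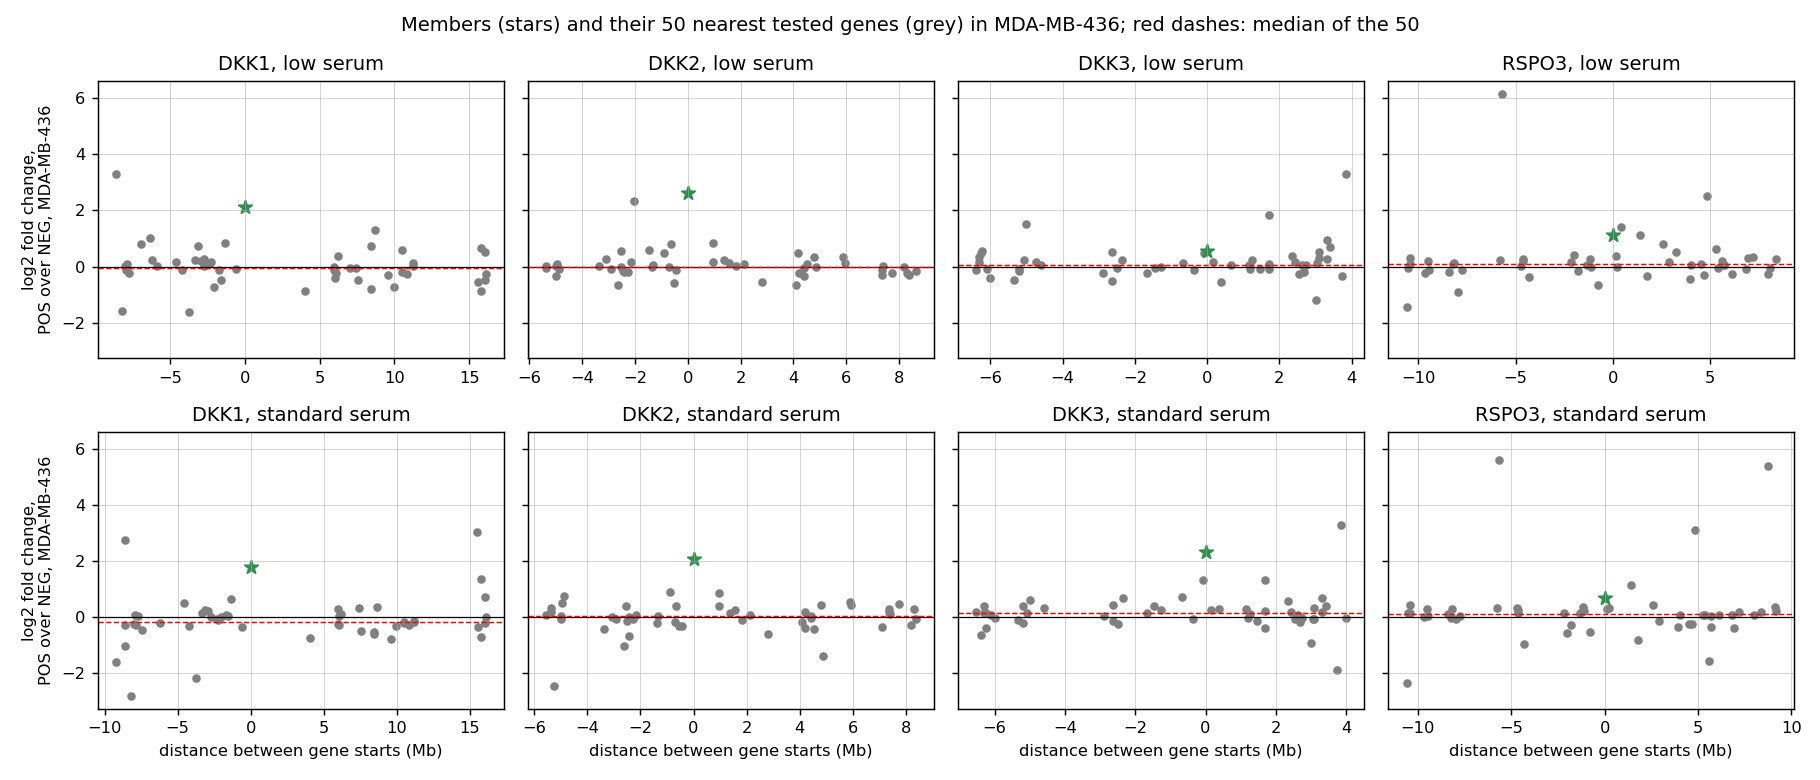
Log2 fold change of 7TGP-POS over 7TGP-NEG in MDA-MB-436 for DKK1, DKK2, DKK3 and RSPO3 (stars) and 50 neighbouring genes, 25 on either side (grey), against the distance between gene starts in megabases, with low serum above and standard serum below. The neighbours' medians (red dashes) lie between -0.17 and 0.16, and the stars of DKK1 and DKK2 lie at 1.78 or above.

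Of 22 genes for Wnt and R-spondin receptors and their partners, LGR6 and LGR5, which bind R-spondins, were called higher in MDA-MB-231 in low serum. None was called lower. Below the 2-fold limit others passed the P threshold in this comparison. Among them FZD1 (-0.83, adjusted P = 2.76e-16) and FZD8 (-0.57, adjusted P = 2.13e-05) were lower, and ROR1 (0.57, adjusted P = 8.03e-09) and RNF43 (0.60, adjusted P = 9.15e-05) were higher. LGR6 went from a mean of 0.195 to 2.52 TPM (log2 fold change 3.87, SE 0.338, adjusted P = 2.68e-16). In MDA-MB-436 LGR6 (1.23) and the Wnt5a receptor gene ROR2 (1.54) rose in low serum, and FZD10 fell from 1.53 to 0.055 TPM, at the detection limit in 7TGP-POS. In standard serum 2 receptors were called higher (RNF43, LGR6) and 2 lower (FZD1, FZD3) in MDA-MB-231. In MDA-MB-436 ROR2 was called higher and FZD10 and RNF43 lower. RNF43 in MDA-MB-436 was at 0.135 TPM or less, and LGR6 in MDA-MB-231 in standard serum lost its call with DESeq2 (adjusted P = 0.212). The co-receptor genes LRP5 and LRP6, to which DKK1 binds, were not called in any of these 4 comparisons. In MDA-MB-231 in low serum LRP5 was lower in 7TGP-POS below the 2-fold limit (-0.38, SE 0.0480, adjusted P = 1.52e-08), and LRP6 gave -0.037 (adjusted P = 0.616). The receptors' median log2 fold change, over those above 3 counts in both groups, lay between -0.0019 and 0.13. Called receptors made up 9.09% and 18.2% in MDA-MB-231 in low and standard serum, against 5.9% and 7.69% of all genes. In MDA-MB-436 they made up 13.6% in each, against 10.5% and 12.5% of all genes.

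Of 19 Wnt ligand genes 13 were tested. Called ligands made up 46.15% and 15.4% of these in MDA-MB-436 in low and standard serum, against 10.5% and 12.5% of all genes. In MDA-MB-231 they made up 23.1% in each, against 5.9% and 7.69% of all genes. In MDA-MB-436 in low serum 5 were called higher (WNT5A, WNT7B, WNT6, WNT10A and WNT7A) and WNT3A was called lower. WNT5A went from 15.8 to 28.2 TPM and WNT7B from 5.30 to 10.0 TPM, while WNT3A went from 2.06 to 0.480 TPM. The median of the 13 was 0.48, against 0.01 for all genes. In standard serum 1 was called higher (WNT7A) and 1 lower (WNT3A) in this line, where the median was 0.06 against 0.0047 for all genes. WNT7A lost its call with DESeq2 in both serum conditions (adjusted P = 0.189 and 0.352). In MDA-MB-231 WNT9A and WNT11 fell in both serum conditions, and WNT7B rose in low serum and WNT5A in standard serum, where DESeq2 left WNT5A just below the 2-fold limit. WNT9A went from 6.79 to 1.88 TPM in low serum.

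Among 21 further modulators, which include sclerostin, the remaining SFRPs and the Wnt-binding or Wnt-cleaving surface proteins, none of the 17 tested in low serum or the 18 in standard serum was called in MDA-MB-231 by edgeR or by DESeq2. In each serum condition 3 of them had an unadjusted P under 0.05 in edgeR. These also passed the adjusted P threshold but lay below the 2-fold limit. For low serum they were TRABD2A (0.70, adjusted P = 2.09e-07), TPBG (0.37, adjusted P = 6.81e-08) and DRAXIN (-0.996, adjusted P = 0.0250). Under standard serum they were TRABD2A (0.90, adjusted P = 6.23e-06), TPBG (0.33, adjusted P = 0.0201) and IGFBP4 (0.24, adjusted P = 0.0351). Only 9 of the 17 and 8 of the 18 were above 3 counts in a library of both groups. In MDA-MB-436 IGFBP4, an IGF-binding protein that also antagonizes Wnt signaling, rose from 33.8 to 60.1 TPM in low serum (log2 fold change 1.08, SE 0.0638, adjusted P = 4.50e-18) and from 23.4 to 54.1 TPM in standard serum (1.11). The glypican gene GPC3 fell in both (-1.64 and -1.54), RSPO2 fell in low serum (-1.43) and TRABD2B fell in standard serum (-1.38). SFRP4 rose in standard serum from 0.110 to 0.580 TPM, and SOSTDC1 from 1 count in 2 libraries to 18. Called modulators in MDA-MB-436 made up 17.65% and 27.8% of those tested in low and standard serum, against 10.5% and 12.5% of all genes. DESeq2 called 2 of these modulators in low serum in place of 3, without RSPO2 (adjusted P = 0.1005), and 3 in standard serum in place of 5, without SFRP4 (adjusted P = 0.144) and SOSTDC1, for which it gave no adjusted P.

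Of 14 canonical target genes, 3 were called in MDA-MB-436 in low serum (21.4%, against 10.5% of all genes) and 4 in standard serum (28.6%, against 12.5%). LGR5, RNF43 and ZNRF3 also belong to the receptors above, and NOTUM and APCDD1 to the further modulators. TNFRSF19 rose in low serum (1.38) and standard serum (2.47), NKD2 and NKD1 fell in low serum (-2.60 and -1.21), and NKD2, SP5 and RNF43 fell in standard serum. NKD2, a feedback inhibitor of the pathway, went from 24.1 to 3.35 TPM in low serum. AXIN2 and LEF1 were not called in any of the 4 reporter comparisons, but in some they passed the P threshold below the 2-fold limit. In MDA-MB-436 LEF1 gave 0.50 in low serum (adjusted P = 1.36e-05) and 0.90 in standard serum (adjusted P = 9.13e-07). For MDA-MB-231 in low serum LEF1 gave 0.63 (adjusted P = 1.42e-06) and AXIN2 0.65 (adjusted P = 8.29e-06). Other targets below the limit passed the P threshold there in both directions. TNFRSF19 (0.77, adjusted P = 8.37e-06) and RNF43 (0.60, adjusted P = 9.15e-05) were higher. SP5 (-0.55, adjusted P = 0.00459) and CCND1 (-0.49, adjusted P = 4.81e-11) were lower. In MDA-MB-231 LGR5 rose in low serum (1.40), and RNF43 (1.11) and TNFRSF19 (1.08) rose in standard serum. Called targets made up 7.14% and 14.3% there, against 5.9% and 7.69% of all genes. The median of the 14 targets in MDA-MB-436 was 0.01 in low serum and -0.10 in standard serum, and in MDA-MB-231 it was 0.25 and 0.01.

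**Figure D4:**
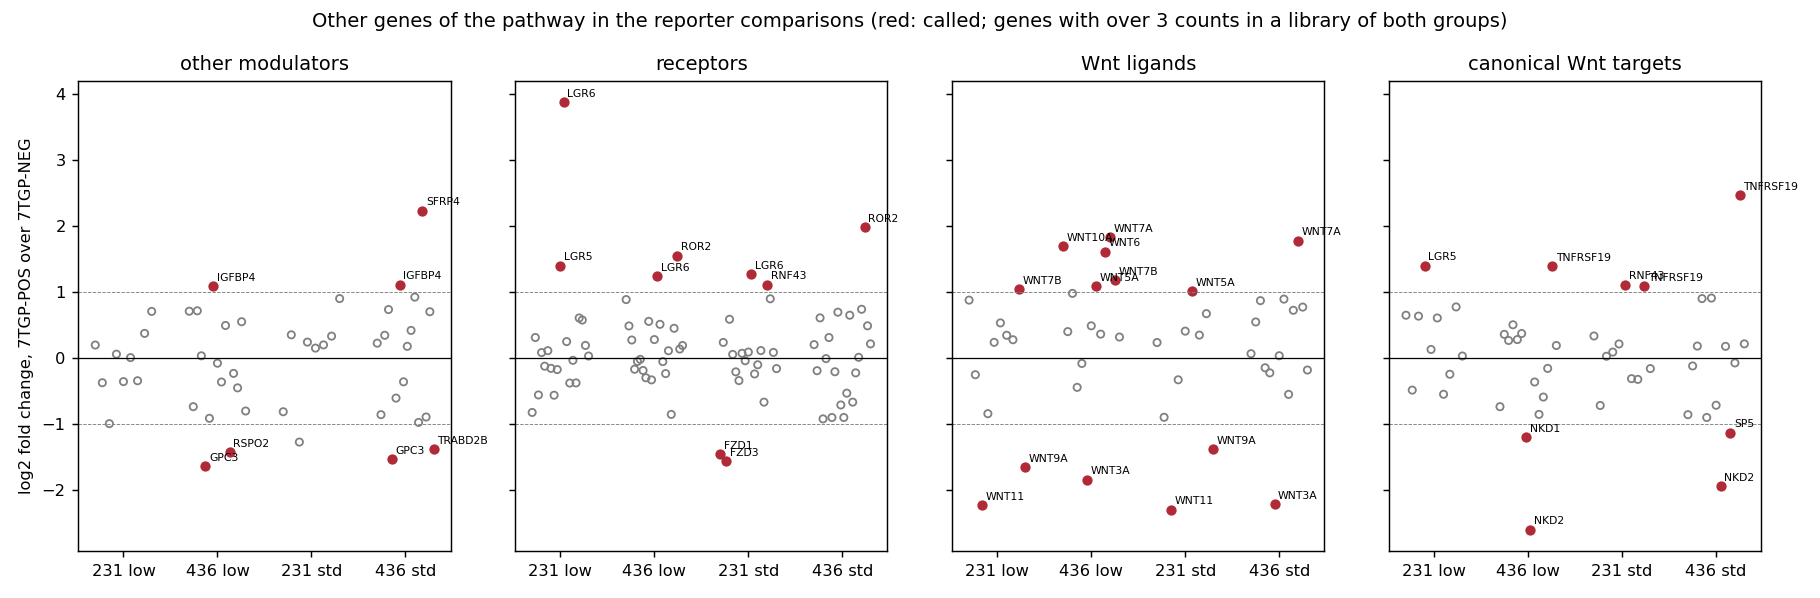
Log2 fold change of 7TGP-POS over 7TGP-NEG (vertical axis) for other modulators, receptors, Wnt ligands and canonical targets in MDA-MB-231 and MDA-MB-436 under low and standard serum (std), for genes above 3 counts in a library of both groups; called genes are red and named, and dashed lines mark a 2-fold change. Called genes lie on both sides of 0 in most panels, with the ligands in MDA-MB-436 in low serum mostly above it.

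The genes whose pattern was most like that of a member were found by the mean of 2 Pearson correlations of log2(TPM + 1), 1 over the 8 low serum and 1 over the 8 standard serum libraries, among 13544 genes. For DKK1 they were GGT5 (0.991), ZNF91 (0.988) and SEMA3A (0.987). For DKK2 they were ADAM12 (0.996), EYA2 (0.992) and SULF2 (0.992), and for DKK3 PKIB (0.953), CCBE1 (0.946) and DCUN1D5 (0.944). RSPO3 was closest to FNDC1, KANK4 and NPTX2, all at 0.995. SFRP1 was closest to PPP4R4 (0.999), SLC47A1 (0.999) and EMG1 (0.998), and KREMEN1 to RIMKLA (0.998), EML1 (0.997) and SFRP1 (0.996). These libraries share 2 lines, so the values largely describe the difference between the lines.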

How the data were processed

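Total RNA of 16 cultures was sequenced as paired-end reads. Per the labels and the methods of the study, reads were aligned to hg19 with STAR (2.6.1a in the submitters' processing notes) and assigned to Gencode genes. The methods of the study describe strand-specific kits for both serum conditions and a check of read orientation. The strand setting of the counting and the calculation of TPM are not given in the sources used here. For each serum condition the authors deposited a table of raw counts per gene and a table of TPM, with 57820 genes each. The labels name a poly(A) kit for all libraries, whereas the methods of the study describe rRNA depletion for low serum.

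Identifiers were matched to Gencode v44lift37 (55538 matched, 19404 protein-coding). Protein-coding genes whose counts added up to 10 or more across the 8 libraries sharing a serum condition entered the test with edgeR 4.0.16 (R 4.3.3; TMM factors, glmQLFit with robust dispersion, glmQLFTest) in a model of 4 group means, with Benjamini-Hochberg adjustment over all genes tested. A call needed an adjusted P under 0.05 together with a log2 fold change of 1 or more in either direction, as in the methods of the study. SEs came from the information matrix of the fitted model and its posterior quasi-dispersion. Where a group held no more than 3 counts in any library, the ratio of CPM is given in place of the fitted fold change. Alternatives were DESeq2 1.42.0 (test, and size factors alone), other filters, all biotypes, a replicate block, fits on the groups compared alone, limma 3.58.1 on log2(TPM + 1) and log2(TPM + 0.1), and leaving out each library. The code was tested on simulated data. Replicates differed by more than sampling noise.

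The members and lists were chosen with earlier results of these data known. Every member is named. From other lists at most 6 called genes per comparison are named, by adjusted P. LRP5, LRP6, AXIN2 and LEF1 were added after their values were seen. The same holds for the other genes named below the 2-fold limit in MDA-MB-231 in low serum (FZD1, FZD8, ROR1, RNF43, TNFRSF19, SP5, CCND1, TRABD2A, TPBG and DRAXIN). It also holds for TRABD2A, TPBG and IGFBP4, named below that limit for MDA-MB-231 under standard serum. For each member with a group mean of at least 1 TPM, the 3 protein-coding genes with the highest mean correlation are named.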

Additional observations from a re-analysis of the deposited data

Results flagged for a closer look

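These 4 results stood out because the reporter difference itself differed between the cell lines in the interaction test of edgeR. For DKK1 the log2 difference, MDA-MB-231 relative to MDA-MB-436, amounted to -1.82 in low serum and -2.12 in standard serum. For SFRP1 it was -1.46 in low serum. For DKK3 it was -1.01 in standard serum. The DKK1 and SFRP1 values kept their call when each library was left out in turn, with ranges of -1.85 to -1.76, -2.21 to -2.03 and -1.57 to -1.29, whereas that of DKK3 did not. Both lines were compared within the same serum condition, and line and medium cannot be told apart. No explanation was tested.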

How the results depend on the processing

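With 2 cultures a group, depth left SFRP2 and WIF1 untested, FRZB and RSPO1 at 20 counts or fewer in every library, and some libraries of DKK2, DKK3, SFRP1, KREMEN1 and RSPO3 under 50 counts. The number of members called moved as follows. Line difference stands here for the interaction, that is, how far the reporter difference differed between the lines. With an adjusted P alone it was 5 in MDA-MB-231 in low serum and 5 in MDA-MB-436 in standard serum, from 3 each. On log2(TPM + 1), which compresses low genes, it was 0 in MDA-MB-231 under either serum, 1 in MDA-MB-436 in standard serum, 4 between 7TGP-POS sublines in low serum and 1 in the line difference in standard serum. On log2(TPM + 0.1) it was 1 in MDA-MB-231 in standard serum and 1 in the line difference in low serum. The line difference in standard serum, with 2 members called, gave 1 with DESeq2, with all biotypes and with the replicate block. Leaving out single libraries gave 1 to 3 members in MDA-MB-231 in standard serum and 1 to 3 in that line difference. The DKK1 and DKK2 calls in MDA-MB-436 kept their direction and call without any single library.

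The directions given next turned, and the cause was not tested. In low serum in MDA-MB-436, KREMEN1 was -0.11 and -0.13 and RSPO1 -0.034 and -0.12 on log2(TPM + 1) and log2(TPM + 0.1). FRZB between 7TGP-NEG sublines in low serum was -0.026 and -0.14 on the same scales. FRZB in MDA-MB-436 in standard serum was -0.025 with DESeq2 size factors, -0.0049 without a filter, -0.0019 with all biotypes and -0.010 on log2(TPM + 0.1). The interaction of DKK3 in standard serum was 0.18 on log2(TPM + 1). With single libraries left out, FRZB ranged from -0.88 to 0.90 between 7TGP-NEG sublines in low serum, from -1.34 to 0.77 between 7TGP-POS sublines in standard serum, from -0.93 to 0.80 in MDA-MB-231 in low serum, from -1.34 to 0.78 in MDA-MB-436 in standard serum, and from -1.80 to 0.016 and -1.06 to 1.06 in the line differences. RSPO3 ranged from -0.89 to 1.74 in MDA-MB-231 in low serum and from -1.99 to 0.61 in the line difference, KREMEN1 from -0.0064 to 0.21 and RSPO1 from -0.12 to 0.28 in MDA-MB-436 in low serum.

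Over all genes, an adjusted P alone called 6250 and 8348 genes in MDA-MB-231 and MDA-MB-436, 7345 in the line difference, and 12730 and 12607 between lines under low serum (from 948, 1694, 1884, 6732 and 6245), and under standard serum 5084, 7631, 6355, 12140 and 12239 (from 1185, 1932, 2132, 7201 and 6993). On log2(TPM + 1) the counts were 314, 795 and 1131 for low serum, and for standard serum 522 and 941. With all biotypes 10397 and 9749 genes were called between lines in low serum.

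Replicate numbers were not taken to pair the samples, since the labels name no shared batch and the correlations of replicate differences between groups ranged from -0.277 to 0.120 in low serum and, although mostly positive, from -0.0573 to 0.493 in standard serum. The replicate block changed no call of a member other than DKK3 in the line difference in standard serum (-0.998).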
